A study of Mus musculus with 16 samples.

Results

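This account describes 30 genes of oligodendrocytes and myelin in the CA1 subfield of the mouse hippocampus. The genes were given as a list of symbols, chosen by what they are known to do and not by a threshold in these libraries. Earlier results of these libraries were known when the list was chosen. They were matched to the gene symbol in each transcript name, and the estimated counts were summed by symbol. All 30 symbols were found among the 46403 symbols of the table, carried by 129 of its 111706 transcripts. A filter on low counts left 25 of the 30 genes, and 11515 genes in all, for testing. Ermn, Opalin, Gjb1, Ppp1r14a and Nkx6-2 did not pass it.

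RNA sequencing of CA1 was done on 8 mice labelled Fmr1-KO, in which Fmr1 is knocked out, and on 8 mice labelled C57BL/6, called WT here. Fmr1 encodes FMRP, an RNA-binding protein whose loss causes fragile X syndrome in people. Every animal of both genotypes had been a yoked control in the active place avoidance task, in which a trained animal learns to avoid a zone of an arena where it would receive a shock. The labels give each library its own animal code, made of a number and the letter B or D, and the sources used here say nothing further of age, sex, pooling or what the letter means.

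Oligodendrocytes are the glial cells that wrap axons of the central nervous system in myelin, a compacted multilayered membrane that speeds conduction and supplies the axon with metabolites. They arise from dividing precursor cells, pass through a premyelinating stage, and then switch on the genes of myelin proteins and myelin lipids together. In the hippocampus, myelinated axons run densely in the alveus, the white matter sheet that borders CA1, and more sparsely through the cell layers.

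The regulatory stretches in front of a few of these genes are shown first, because the transcription factors Sox10, Myrf, Olig1 and Olig2 are themselves among the 30 genes. Each stretch is the sequence just upstream of a RefSeq start site in the build GRCm38.p6, written 5′ to 3′ on the gene's own strand. Capitals mark matches to the searched motifs, in either orientation. Cnp and Mobp were among the genes that varied most closely with the others or with Mbp, as were Cldn11 and Mal, while Pdgfra marks precursor cells and did not vary with them. The stretch of Cnp lies at chr11:100574689-100574903 on the plus strand, that of Mobp at chr9:120149492-120149706 on the plus strand, that of Cldn11 at chr3:31149670-31149919 on the plus strand, that of Mal at chr2:127656696-127656945 on the minus strand, and that of Pdgfra at chr5:75152001-75152250 on the plus strand.
Cnp: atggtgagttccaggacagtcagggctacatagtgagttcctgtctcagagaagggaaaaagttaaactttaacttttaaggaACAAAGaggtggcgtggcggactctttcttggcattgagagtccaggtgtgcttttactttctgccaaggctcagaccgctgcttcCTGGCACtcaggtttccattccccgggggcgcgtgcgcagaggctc
Mobp: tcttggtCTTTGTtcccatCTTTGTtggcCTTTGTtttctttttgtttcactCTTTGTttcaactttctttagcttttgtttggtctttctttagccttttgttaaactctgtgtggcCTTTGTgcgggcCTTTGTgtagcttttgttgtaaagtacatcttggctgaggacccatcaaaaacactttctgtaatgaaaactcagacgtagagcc
Cldn11: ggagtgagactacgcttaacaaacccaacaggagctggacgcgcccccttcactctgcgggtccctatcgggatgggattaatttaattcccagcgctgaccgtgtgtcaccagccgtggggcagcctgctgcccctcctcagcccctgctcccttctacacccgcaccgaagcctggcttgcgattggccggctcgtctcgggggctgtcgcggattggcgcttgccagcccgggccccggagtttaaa
Mal: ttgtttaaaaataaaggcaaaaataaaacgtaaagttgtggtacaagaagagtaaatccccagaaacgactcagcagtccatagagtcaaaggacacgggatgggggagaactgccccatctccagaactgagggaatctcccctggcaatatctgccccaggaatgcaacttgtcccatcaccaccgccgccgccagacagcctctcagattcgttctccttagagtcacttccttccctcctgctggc
Pdgfra: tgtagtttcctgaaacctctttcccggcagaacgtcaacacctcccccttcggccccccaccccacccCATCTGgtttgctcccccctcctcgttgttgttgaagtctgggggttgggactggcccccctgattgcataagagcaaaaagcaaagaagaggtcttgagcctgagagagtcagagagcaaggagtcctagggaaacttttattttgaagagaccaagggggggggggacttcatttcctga
The 250 bases upstream of the start were searched on both strands in 32851 RefSeq promoters, which cover 20 of the 30 genes with 27 start sites. Of the core letters that Sox proteins bind, ACAAAG was in front of 8 of the 20 genes (Cnp, Gjb1, Mag, Mobp, Opalin, Plekhb1, Tmem63a and Tspan2) and in 16.5% of all promoters. The Mobp stretch holds 6 matches, all in the reverse orientation. A second Sox core, ACAATG, was in front of Ermn, Gjb1 and Olig2 (10.7% of all promoters). Of the letters bound by Myrf, CTGGCAC was in front of Cnp and Mag (4.19% of all promoters). The variant of it that reads CTGGTAC was in front of Mog (1.83%). Of the E-boxes, the kind of site that Olig proteins bind, CATCTG was in front of 8 genes, Pdgfra among them (14.4%). The palindromic E-box, which reads CAGCTG on both strands, was in front of Aspa (13% of all promoters). The TATA box, searched as TATAAA, was in front of Aspa, Gjb1 and Olig2 (12.4%). No motif contains another, and no matches overlap in the stretches printed. The stretches of Cldn11 and Mal hold none of these letters. The shares are per start site, and a gene with several start sites has more chances of a match. In front of a gene here means upstream of a RefSeq start, which can lie inside the gene as GENCODE M21 places it. The matches of Aspa, Gpr37, Olig2, Tmem63a and Tspan2 lie inside the gene in this way. So do the ACAAAG of Plekhb1 and, of Gjb1, the ACAATG, the TATAAA and an ACAAAG. A match describes the letters only, since no binding was measured.

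The libraries held 1480966 to 2979481 estimated counts in Fmr1-KO and 2126632 to 3275003 in 6 of the WT libraries. WT replicates 3 and 6 stood apart, with 878484 and 515103 estimated counts and with 10.35% and 31.59% of them in their 10 most abundant genes (3.73% to 6.06% elsewhere). A count of 3 was worth 3.6 and 9.03 CPM (counts relative to a normalised library total) in these libraries and 0.868 to 2.03 in the others, so values of the weaker genes in both are poorly determined. For the results they moved most, values without them are given beside, and the plot of fold changes shows them for every tested gene. Fmr1 itself was at 58.1 ± 19.4 CPM in WT and 22.2 ± 7.08 in Fmr1-KO (SD, n = 8 each; log2 fold change −1.41, SE 0.22, adjusted p = 0.0112, edgeR). Markers of CA1 pyramidal cells were abundant in every library, with a summed level of 2690 to 3190 CPM in WT and 2890 to 3100 in Fmr1-KO. The 30 genes themselves made up 0.0504% to 0.116% of the estimated counts.

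No gene of the 30 passed the test between the genotypes. With edgeR's quasi-likelihood test, 0 of the 25 tested genes had an adjusted p under 0.05, where 2 of all 11515 genes did (0.0174%). At an unadjusted p under 0.05, 2 of the 25 were lower in Fmr1-KO (Olig1 and Pdgfra), where 4.28% of all genes were, and 0 were higher, where 3.61% were. The levels of the genotypes overlapped for all 25, and they were fully separate for 0.0434% of all genes. DESeq2 and limma-voom with sample quality weights called 0 of the 25 as well, with 3 and 6 of them lower at an unadjusted p under 0.05, where 5.22% and 6.29% of all genes were. The estimates lay below 0 for 23 of the 25, where 51.9% of all genes did, with a median log2 fold change of −0.41 beside −0.01 over all genes. Trf (0.05) and Enpp2 (0.04) had estimates above 0. Since these genes vary together between animals, as described further on, their estimates are not separate observations.

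Without WT replicates 3 and 6, 26 of the 30 genes were tested, Ermn being added, and again 0 passed (0.0169% of all genes did). Estimates below 0 numbered 22 of 26, where 50.3% of all genes lay below 0, and the median was −0.36 beside −0.00. At an unadjusted p under 0.05, 2 genes were lower, where 3.33% of all genes were, and 0 were higher, where 3.99% were. They were Car2 (unadjusted p = 0.0147, adjusted p = 0.644, edgeR) and Mbp (unadjusted p = 0.0455, adjusted p = 0.674, edgeR), and neither Olig1 nor Pdgfra was among them. Leaving out single libraries moved the count of genes lower at an unadjusted p under 0.05 from 2 to 7 without WT replicate 4 (4.65% of all genes) or WT replicate 7 (4.55%). It was 5 without Fmr1-KO replicate 2 (4.21%) and 4 without Fmr1-KO replicate 1 (3.85%). It was 3 without WT replicate 1, 3 or 5 (4.25%, 3.56% and 4.59%), and 1 without Fmr1-KO replicate 5 (5.03%) or 6 (3.34%). In bulk tissue, fewer oligodendrocytes and less RNA per oligodendrocyte cannot be told apart, and neither can be told from the share of white matter in the dissected piece.

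**Figure D1:**
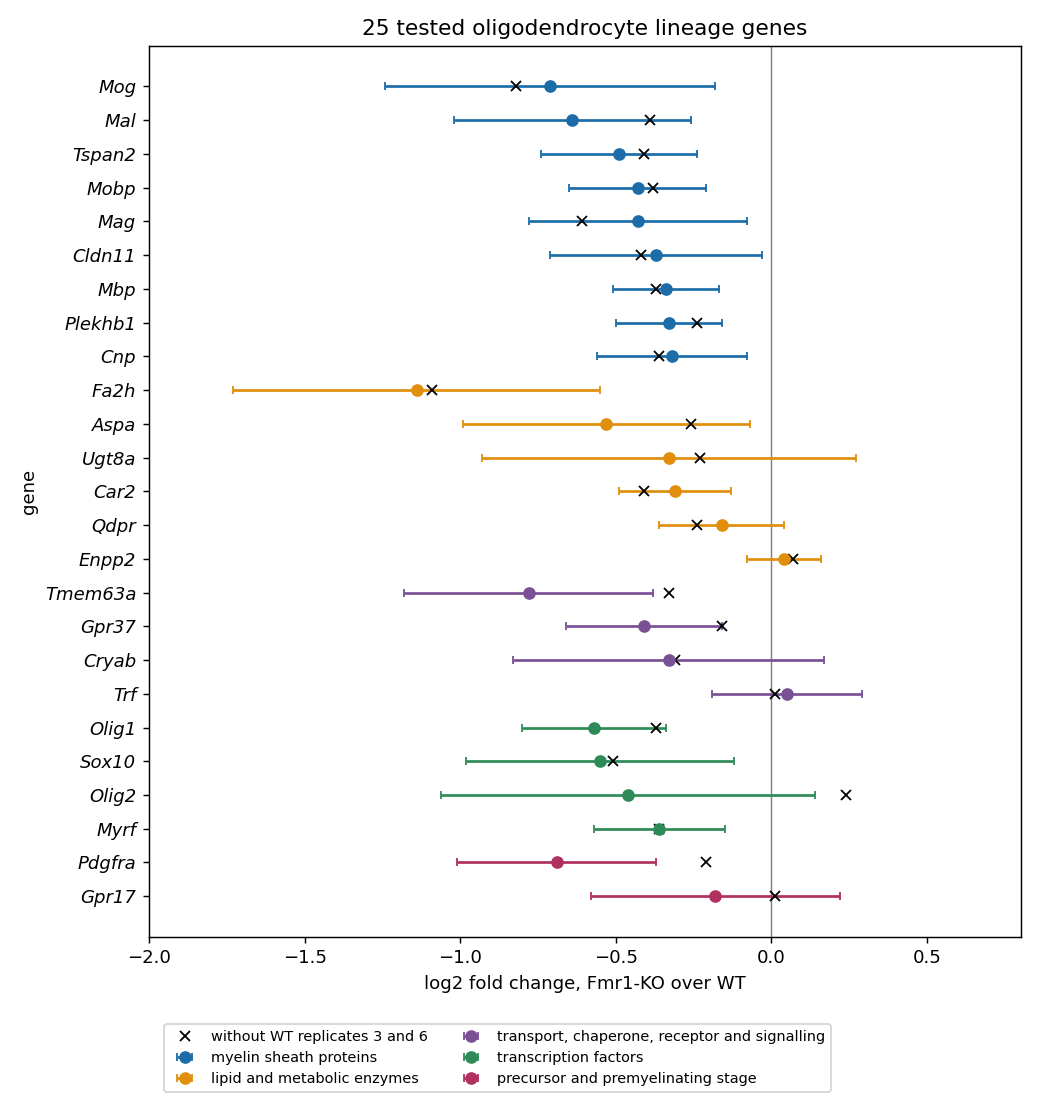
Log2 fold change of each of the 25 tested genes, Fmr1-KO over WT (n = 8 each), with points in the colour of the gene's role, bars of 1 SE from edgeR, and crosses for the value without WT replicates 3 and 6. The points of 23 genes lie left of 0, those of Trf and Enpp2 just right of it, and the crosses of Olig2 and Gpr17 lie right of 0.

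Among the proteins of the sheath, Mbp (myelin basic protein, which holds the cytoplasmic faces of the membrane together) was the most abundant of the 30 genes per length, with a mean of 155 TPM (transcript abundance scaled by length) over the 14 deeper libraries. Its normalised level in WT ran from 120 through a median of 178 to 277 CPM, and in Fmr1-KO from 109 through 152 to 231 CPM. The highest values were those of WT replicates 1 and 8 (276 and 277 CPM), the lowest those of Fmr1-KO replicates 6 and 8 (109 CPM each), and the groups overlapped. The means were 189 ± 58.6 and 151 ± 39.5 CPM (SD, n = 8), and the log2 fold change −0.34 (SE 0.17; edgeR, adjusted p = 0.654), or −0.37 without WT replicates 3 and 6.

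Mobp (myelin-associated oligodendrocyte basic protein, a small protein of compact myelin) ran from 28.0 through 49.9 to 82.3 CPM in WT and from 24.8 through 40.5 to 60.9 CPM in Fmr1-KO. Of the 8 Fmr1-KO animals, 7 lay below the WT median, yet all lay within or just below the WT range. The log2 fold change was −0.43 (SE 0.22, adjusted p = 0.654, edgeR) and −0.38 without WT replicates 3 and 6. Cnp (2′,3′-cyclic nucleotide phosphodiesterase, an enzyme of the cytoplasmic channels in myelin) ran from 20.8 through 44.1 to 74.5 CPM in WT and from 17.2 through 36.8 to 50.0 CPM in Fmr1-KO. The highest value was again that of WT replicate 8 and the lowest that of Fmr1-KO replicate 8. The log2 fold change of Cnp was −0.32 (SE 0.24, adjusted p = 0.758, edgeR).

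The other sheath genes tested were Mog and Mag (glycoproteins of the outermost and innermost myelin surfaces), Mal (a lipid raft protein that sorts membrane cargo), Cldn11 (the claudin of the tight junctions between myelin layers), Tspan2 (a tetraspanin) and Plekhb1 (a pleckstrin homology domain protein). Their log2 fold changes lay between −0.71 (Mog) and −0.33 (Plekhb1), with adjusted p from 0.643 to 0.819 in edgeR, and without WT replicates 3 and 6 between −0.82 (Mog) and −0.24 (Plekhb1). For the 9 tested sheath genes the median was −0.43, and −0.40 without those libraries, when Ermn was also tested. Mog was a weak gene here, at 0 to 10.2 CPM in WT and 0.469 to 9.45 CPM in Fmr1-KO, with 0 counts in WT replicate 3. Mal reached 56.4 CPM in WT replicate 3, against 6.02 to 33.3 CPM in the other WT libraries and 7.93 to 19.6 CPM in Fmr1-KO.

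Of the sheath genes that missed the filter, Ermn (ermin, a cytoskeletal protein of mature cells) had 167 estimated counts over the 16 libraries, Gjb1 (connexin 32, which forms gap junctions between myelin layers) had 33 and Opalin (a transmembrane glycoprotein of central myelin) had 31. Ermn was listed at 38.3 CPM in WT replicate 6, which rests on 12.74 estimated counts, and at 0.426 to 5.64 CPM in Fmr1-KO. Opalin had at least 1 count in 10 libraries and Gjb1 in 11. With no filter on low counts Opalin had an estimate of −1.20 (adjusted p = 0.617, edgeR) and Gjb1 one of 0.75 (adjusted p = 0.791, edgeR), both resting on few counts. Ermn, tested once WT replicates 3 and 6 were left out, was at −0.83 (SE 0.49; edgeR, adjusted p = 0.731).

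**Figure D2:**
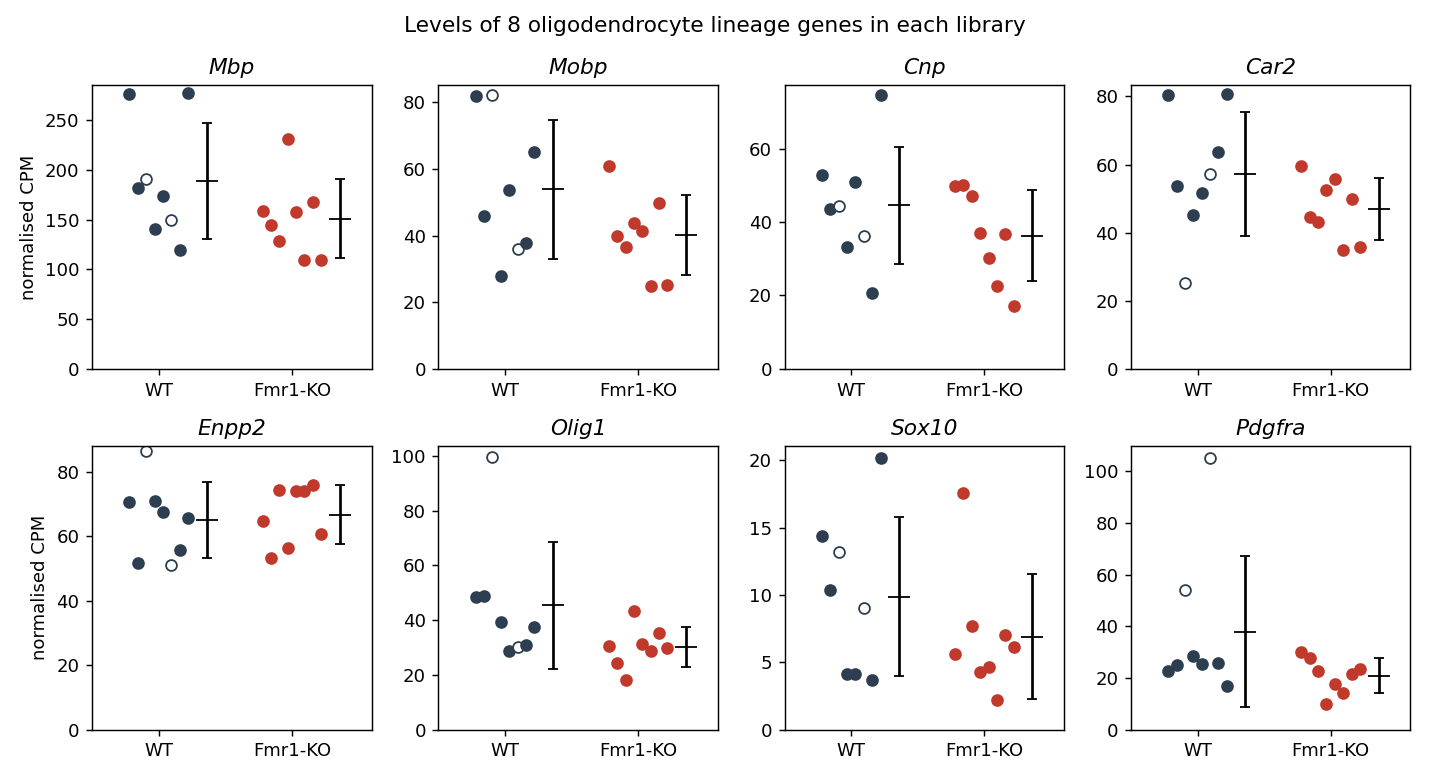
Normalised level (CPM, linear axes from 0) of Mbp, Mobp, Cnp, Car2, Enpp2, Olig1, Sox10 and Pdgfra, with 1 point for each library of WT and Fmr1-KO (n = 8 each), open points for WT replicates 3 and 6, and the mean with bars of 1 SD beside them. The genotypes overlap for each of these genes, and the open points at 99.7 CPM for Olig1 and 105 CPM for Pdgfra lie far above the rest.

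Among the enzymes, Enpp2 (autotaxin, which makes lysophosphatidic acid and is also made by other brain cells) was the steadiest of the 25 tested genes between animals. It ran from 51.1 through 66.6 to 86.4 CPM in WT and from 53.3 through 69.3 to 76.1 CPM in Fmr1-KO, whose range lay wholly inside that of WT. Its log2 fold change was 0.04 (SE 0.12, adjusted p = 0.963, edgeR). Its coefficient of variation over the 14 deeper libraries was 13%, where counting error alone gives 7.61%.

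Car2 (carbonic anhydrase 2, a pH-regulating enzyme of oligodendrocytes) ran from 25.2 through 55.5 to 80.6 CPM in WT and from 34.9 through 47.2 to 59.6 CPM in Fmr1-KO. The WT values lay on both sides of the Fmr1-KO values. Its log2 fold change was −0.31 (SE 0.18, adjusted p = 0.685, edgeR), and −0.41 (SE 0.16, adjusted p = 0.644) without WT replicates 3 and 6. The estimate for Qdpr (dihydropteridine reductase, which recycles tetrahydrobiopterin) was −0.16 on the log2 scale (edgeR, adjusted p = 0.876).

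Fa2h (fatty acid 2-hydroxylase, which makes the hydroxylated fatty acids of myelin galactolipids) had the largest estimate of the 25, −1.14, with an SE of 0.59 and an adjusted p of 0.657 in edgeR. It ran from 0 through 7.15 to 12 CPM in WT and from 0 through 3.24 to 7.43 CPM in Fmr1-KO. With at most 30 counts in a library and 0 counts in WT replicate 4 and Fmr1-KO replicate 5, its spread between animals was wide. Ugt8a, which adds galactose to ceramide in galactolipid synthesis, had a log2 fold change of −0.33 (SE 0.60). Aspa (aspartoacylase, which releases acetate from N-acetylaspartate) had one of −0.53 (SE 0.46), or −0.26 without WT replicates 3 and 6.

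In the transport, chaperone, receptor and signalling group, Trf (transferrin, the iron carrier that oligodendrocytes make) ran from 18.5 through 30.3 to 55.7 CPM in WT and from 16.3 through 36.4 to 45.5 CPM in Fmr1-KO. Its log2 fold change was 0.05 (SE 0.24, adjusted p = 0.971, edgeR), and its sign changed with the setting. Cryab (alpha-B crystallin, a small heat shock protein) had a log2 fold change of −0.33 (SE 0.50). Tmem63a (a mechanosensitive ion channel) was at 10.4 ± 7.37 CPM in WT and 5.36 ± 1.5 in Fmr1-KO (SD, n = 8). Its highest values were those of WT replicates 6 and 3 (24.1 and 19.2 CPM), and its log2 fold change of −0.78 became −0.33 without them.

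Gpr37 (an orphan receptor of maturing oligodendrocytes) depended on WT replicate 3 in the same way, which was at 79.7 CPM where the other WT libraries lay between 25 and 32.3 CPM. Its log2 fold change was −0.41 with all libraries and −0.16 without WT replicates 3 and 6. Ppp1r14a (an inhibitor of myosin phosphatase) had 32 estimated counts in all and was not tested.

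The transcription factors had log2 fold changes of −0.57 (Olig1), −0.55 (Sox10), −0.46 (Olig2) and −0.36 (Myrf). Olig1 and Olig2 are helix-loop-helix factors that specify the lineage, Sox10 keeps the lineage program on, and Myrf switches on myelin genes in maturing cells. Olig1 ran from 28.8 through 38.4 to 99.7 CPM in WT and from 18.1 through 30.2 to 43.5 CPM in Fmr1-KO. WT replicate 3 held the highest value, the next being 48.9 CPM, and 7 of the 8 Fmr1-KO animals lay below the WT median. Its adjusted p was 0.590 in edgeR (unadjusted p = 0.0201, SE 0.23), and without WT replicates 3 and 6 its log2 fold change was −0.37.

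Myrf ran from 15.8 through 25.9 to 41.9 CPM in WT and from 11.1 through 21.4 to 25.6 CPM in Fmr1-KO, where all 8 animals lay below the WT median and within or just below the WT range. Its log2 fold change was −0.36 both with all libraries and without WT replicates 3 and 6 (SE 0.21, adjusted p = 0.685 with all libraries, edgeR). Olig2 was at 40.8 CPM in WT replicate 3 and between 1.87 and 17.1 CPM in the other WT libraries, and its log2 fold change turned to 0.24 without WT replicates 3 and 6. Sox10 was at 9.89 ± 5.89 CPM in WT and 6.91 ± 4.63 in Fmr1-KO (SD, n = 8). Nkx6-2, a homeobox factor of the lineage, had 56 estimated counts in all and was not tested.

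The 2 genes of earlier stages were Pdgfra (the receptor through which platelet-derived growth factor keeps precursors dividing) and Gpr17 (a receptor of premyelinating cells). Pdgfra ran from 16.7 through 25.6 to 105 CPM in WT and from 9.81 through 22.1 to 30 CPM in Fmr1-KO. WT replicates 6 and 3 were at 105 and 54.0 CPM, and every other WT library lay within the Fmr1-KO range. The log2 fold change was −0.69 (SE 0.32, unadjusted p = 0.0393, adjusted p = 0.624, edgeR) with all libraries and −0.21 (SE 0.22, adjusted p = 0.860) without these. Gpr17 had log2 fold changes of −0.18 and 0.01.

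Markers of other cells were also high in WT replicate 3. The summed level of the 9 astrocyte markers was 5450 CPM in WT replicate 3, 1890 to 2550 in the 6 deeper WT libraries and 1650 to 2600 in Fmr1-KO. All 9 had estimates below 0, where 51.9% of all genes did (median −0.32). Without WT replicates 3 and 6, estimates below 0 numbered 6 of 9, where 50.3% of all genes lay below 0 (median −0.08). The 10 tested markers of endothelium and pericytes all had estimates below 0 (median −0.63, and −0.39 with 9 of 10 below 0 without those libraries), with a summed level of 469 CPM in WT replicate 3, 295 in WT replicate 6, 118 to 215 in the other WT libraries and 77.1 to 174 in Fmr1-KO. The 9 microglia markers had estimates below 0 with and without them (medians −0.36 and −0.22), with a summed level of 516 CPM in WT replicate 3, 200 to 278 in the other WT libraries and 157 to 280 in Fmr1-KO. Their part in the values of the oligodendrocyte genes was not tested. Of the Schwann cell markers, the myelin cells of peripheral nerve, Pmp2 was at 0 in all libraries. The summed level of the list was 138 to 244 CPM in WT and 145 to 193 in Fmr1-KO, most of it from Drp2 (134 CPM on average). Of the choroid plexus markers, Folr1 was at 0 in all libraries and Ttr was at 0 in all but Fmr1-KO replicate 2 (1.35 CPM), while Kl averaged 70.2 CPM of a summed level of 30 to 111 CPM in WT and 63.9 to 104 in Fmr1-KO.

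Summed over the 30 genes, the normalised level in WT ran from 580 through a median of 813 to 1100 CPM and in Fmr1-KO from 498 through 698 to 760 CPM. All 8 Fmr1-KO animals lay below the WT median, and 6 of them within the WT range. From high to low, the first 6 libraries were WT replicates 8, 3, 1, 5, 6 and 2, while WT replicates 4 and 7 ranked 13 and 14, below 6 of the Fmr1-KO libraries. The means were 842 ± 190 and 662 ± 104 CPM (SD, n = 8), a ratio of 0.786, or 0.819 against the 6 deeper WT libraries (809 ± 195 CPM). On the TPM scale the ratio of the summed levels was 0.983 with all libraries and 0.823 against the 6 deeper WT libraries. WT replicates 3 and 6 had summed TPM of 437 and 87.7, where the others had 398 to 1140. On this scale 2 of the 8 Fmr1-KO animals lay below the WT median. These TPM ratios are not relative to all genes. The median log2 fold change of all genes on TPM was 0.55 (pseudocount 1) or 0.62 (pseudocount 0.1) with all libraries. Mbp made up 22.3% of the summed CPM in WT and 22.6% in Fmr1-KO. No test was made of the sum, because the genes were chosen with earlier results of these libraries known.

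By role, the ratio of the summed CPM, Fmr1-KO over WT, was 0.769 for the sheath genes, 0.893 for the enzymes, 0.828 for the transport and signalling group, 0.699 for the transcription factors and 0.661 for the 2 early-stage genes. Against the 6 deeper WT libraries these were 0.771, 0.868, 0.922, 0.801 and 0.935. The sheath and enzyme ratios hardly moved, while those of the other groups came closer to 1.

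The summed level also had a higher mean with the letter B of the animal code than with D, by more in WT than in Fmr1-KO. This difference was not tested. Among animals with the letter B it was 983 ± 132 CPM in WT (810 to 1100) and 692 ± 54.7 in Fmr1-KO (629 to 745; SD, n = 4 each), with no overlap. Among those with the letter D it was 701 ± 118 CPM in WT (580 to 816) and 632 ± 141 in Fmr1-KO (498 to 760; SD, n = 4 each), with overlap. In Fmr1-KO the range of B lay inside that of D. How large a share of all genes separates within a letter was not counted. The separation in B depended on normalisation. As a share of the estimated counts, WT replicate 6 was at 0.0523% and the Fmr1-KO libraries with the letter B at 0.0629% to 0.0744%, so the groups overlapped. Means of Mbp followed the order of the summed CPM, at 223 and 153 CPM for B and 154 and 148 CPM for D. The ranges of Mbp overlapped in B too, at 150 to 277 CPM in WT and 129 to 168 CPM in Fmr1-KO. Both shallow libraries are WT animals with the letter B, and the 2 WT animals left there without them were at 952 and 1100 CPM. Whether the genotype difference itself differs between the letters was not tested. With the letter as a covariate, 0 of the 25 genes passed and 3 were lower at an unadjusted p under 0.05 in edgeR, where 3.91% of all genes were.

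The numbers of the animal codes are not all distinct. Each genotype has 5 numbers, of which 3 are carried by both a B and a D library, and no number occurs in both genotypes. What a shared number stands for is not given in the sources used here. Among these 6 pairs, the B library had the higher summed level in 5. In WT the B and D values were 952 and 788, 1070 and 622, and 810 and 580 CPM. In Fmr1-KO they were 665 and 522, 730 and 498, and, the other way round, 629 and 760 CPM. The WT libraries at 1070 and 810 CPM are the shallow replicates 3 and 6. As a share of the estimated counts, WT replicate 6 (B) was at 0.0523%, below WT replicate 7 (D) at 0.0592%. In a limma-voom fit, added after the data were seen, that lets libraries with the same number be correlated, the estimated correlation was −0.01. It called 0 of the 25 genes, with 3 lower at an unadjusted p under 0.05, where 4.01% of all genes were.

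**Figure D3:**
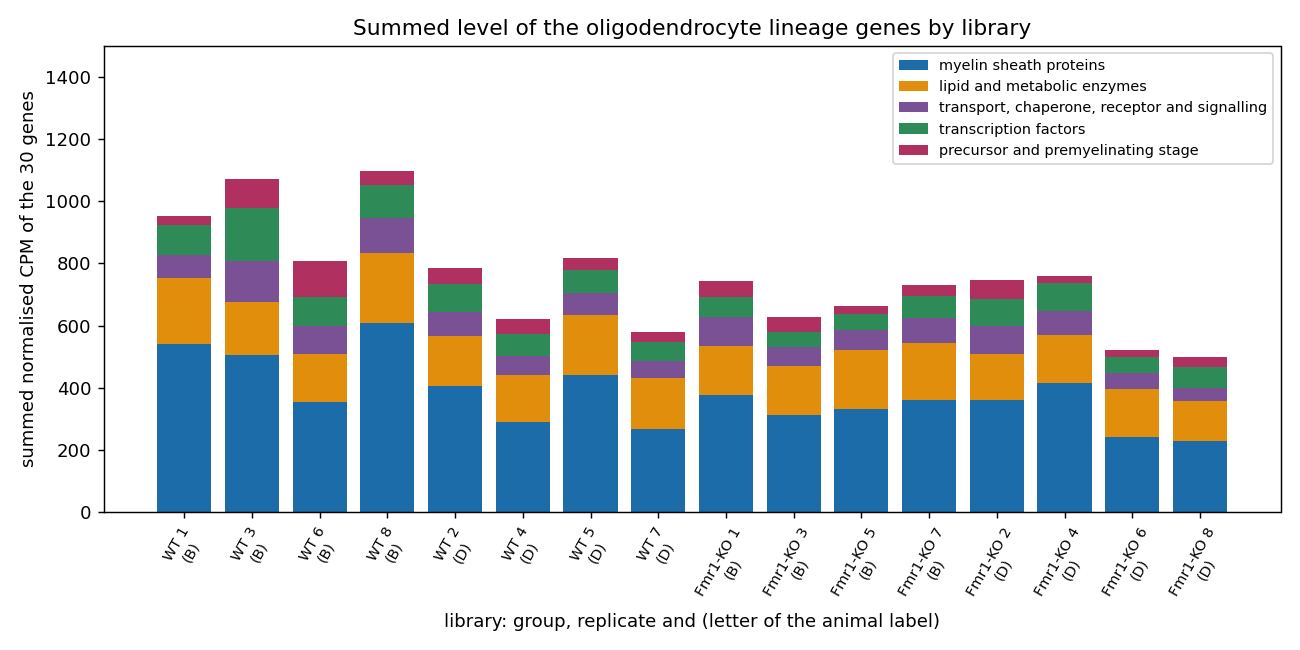
Summed normalised level of the 30 genes (CPM) in each library, as bars from 0 stacked by role and ordered by genotype and letter of the animal code. The 4 WT bars with the letter B, which include the shallow replicates 3 and 6, reach 810 to 1100 CPM. The 4 WT bars with the letter D reach 580 to 816 CPM and overlap those of Fmr1-KO, which all lie between 498 and 760 CPM.

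The levels of these genes varied together from animal to animal. Over the 14 deeper libraries, the 300 pairs of the 25 tested genes had a median Pearson r of 0.30 on log2(CPM + 1) values, and 23.3% of pairs were above 0.5. Over all pairs of tested genes the median was −0.00 and 5.28% were above 0.5. With all 16 libraries the median was 0.26, and with the mean of each genotype removed it was 0.20 (16 libraries) and 0.27 (14 libraries). It was 0.19 within Fmr1-KO (n = 8), 0.30 within WT (n = 8) and 0.38 within the 6 deeper WT libraries. These are descriptions of a small number of libraries whose genes share depth and normalisation, and they carry no test. With CPM scaled by library totals alone, the median over 16 libraries was 0.28, beside 0.16 for all gene pairs. The share of pairs above 0.5 was then 22%, beside 17% for all gene pairs. On TPM values the median was 0.49, below that of all gene pairs (0.66 with a pseudocount of 1).

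**Figure D4:**
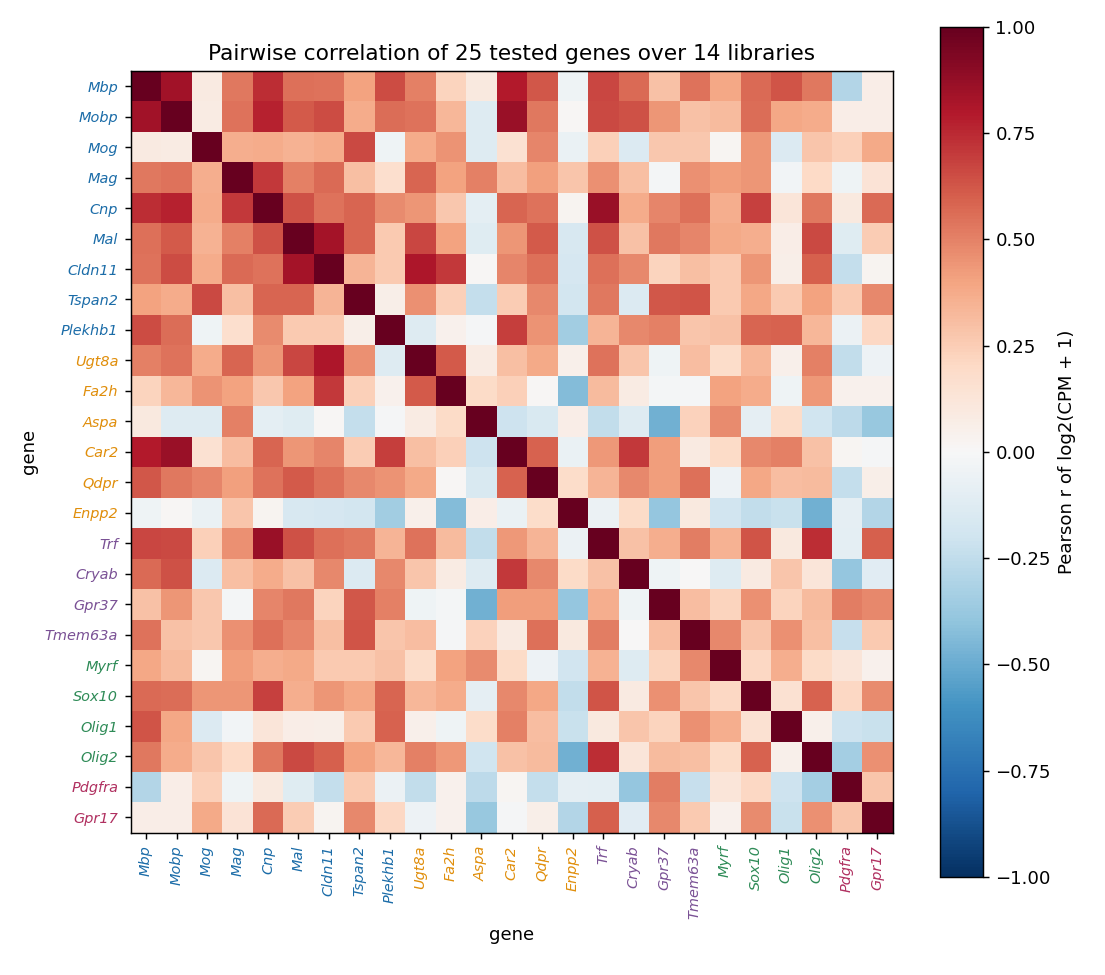
Pearson r for each pair of the 25 tested genes over the 14 deeper libraries on log2(CPM + 1) values, as a colour from blue (−1) through white (0) to red (1), with genes ordered by role. The rows of Mbp, Mobp, Cnp, Mal, Cldn11 and Trf are mostly red, while those of Enpp2, Aspa and Pdgfra are mostly pale or blue and that of Mog is mostly pale.

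Sheath genes were among those that followed the others most closely. Over the 14 deeper libraries, the r of a gene with the mean of the other tested genes was 0.85 for Cnp, 0.80 for Cldn11, 0.77 for Mbp, Mal and Trf, 0.76 for Mobp and 0.67 for Mag and Sox10. The closest pairs were Mobp with Car2 and Cnp with Trf (r = 0.86 each, n = 14), Mbp with Mobp (0.84) and Mal with Cldn11 (0.83). Over all 16 libraries these pairs were, in the same order, at 0.32, 0.83, 0.81 and 0.79. Over the 14 deeper libraries, the mean of the sheath genes had an r of 0.76 with that of the enzymes. The r was 0.77 with the transport and signalling group, 0.73 with the transcription factors and 0.28 with the 2 early-stage genes.

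Genes that did not follow the others were Enpp2 (r = −0.19), Pdgfra (−0.10) and Aspa (−0.07), and Olig1 was at 0.21 (n = 14). For Aspa, 82.7% of the estimated counts in these libraries were assigned to Aspa-002, a transcript annotated with a retained intron. Aspa-001, which is protein-coding, held 11.5%. Pdgfra had an r of −0.29 with Mbp, the gene of the finished sheath. Olig1 nevertheless had an r of 0.63 with Mbp alone. The spread between animals went beyond counting error for the abundant genes: the coefficient of variation over the 14 libraries was 32.6% for Mbp, where counting alone gives 4.7%, and 38% for Cnp, where it gives 9.67%. For Aspa it was 56.8%, where counting gives 32.4%, so counting limits what an r can show for the weak genes. Of the 12 genes with a mean of at least 20 CPM, the median r over pairs was 0.36 (n = 14).

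**Figure D5:**
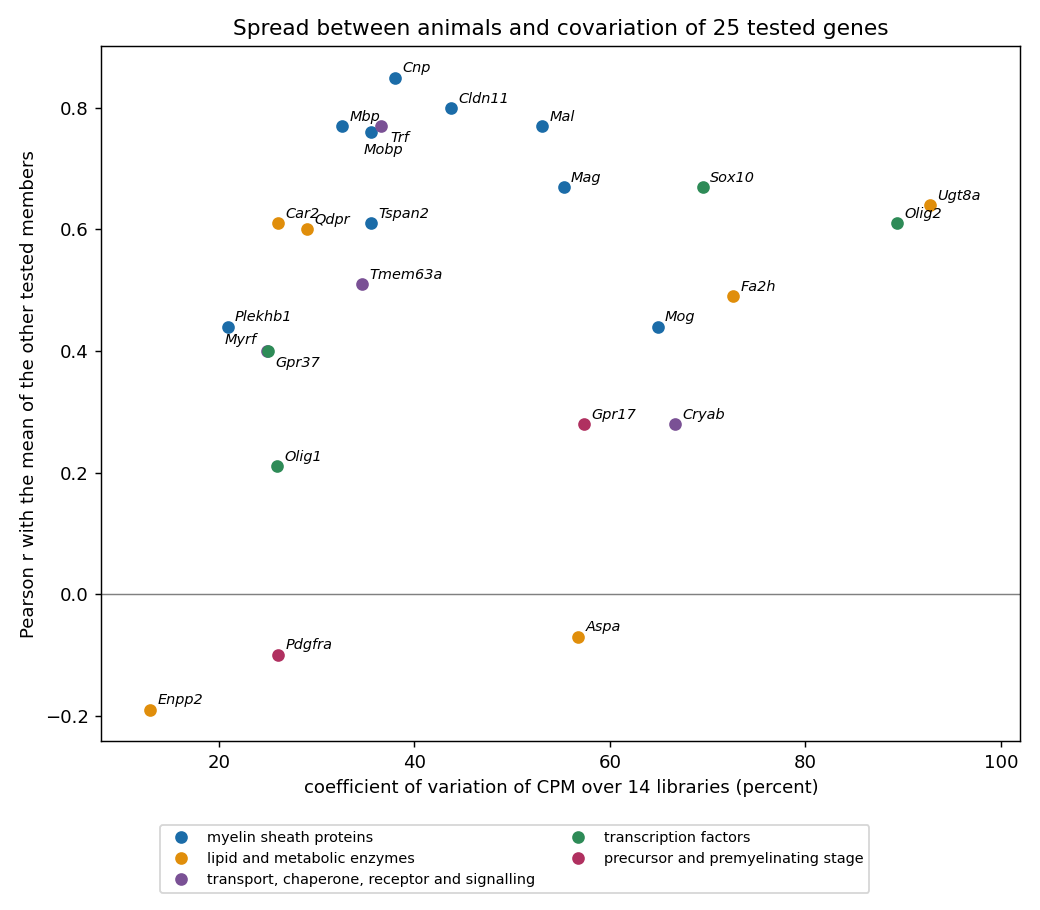
Coefficient of variation of the CPM over the 14 deeper libraries (percent, horizontal) against the Pearson r of each gene with the mean of the other tested genes (vertical), coloured by role. Cnp, Cldn11, Mbp, Mal, Trf and Mobp lie at the top with r from 0.76 to 0.85, and Enpp2 lies at the lower left with 13% and −0.19.

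All 11490 other tested genes were ranked by their r with the mean of these genes over the 14 deeper libraries. Tmem88b, a membrane protein gene from the list of other mature oligodendrocyte genes, ranked 7 (r = 0.78, and 0.83 over 16 libraries). It ran from 4.15 through 13.4 to 20.4 CPM in WT and from 4.31 through 7.95 to 15.9 CPM in Fmr1-KO, and its log2 fold change was −0.51 (edgeR, adjusted p = 0.727). The median r over all ranked genes was 0.01. Single genes of the mature list differed widely in r, such as Arhgef10 (0.60), Evi2a (0.46), Sept4 (0.17), Cd9 (−0.01), Padi2 (−0.26) and Tppp (−0.49). The mean of the 25 genes had an r of 0.80 with that of 23 other genes of mature oligodendrocytes (Spearman rho 0.72, n = 14), which was 0.59 without the 2 libraries farthest from the median and 0.66 over 16 libraries.

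With markers of other cells the r over 14 libraries was 0.56 for pan-neuronal genes, 0.55 for interneurons and 0.40 for endothelium and pericytes. It was 0.36 for microglia, 0.13 for astrocytes and −0.02 for CA1 pyramidal cells. Without the 2 farthest libraries these values were, in the same order, 0.39, 0.59, −0.20, −0.06, 0.15 and 0.13. Lists with 3 tested genes each had an r over 14 libraries of 0.06 (CA2 and CA3 pyramidal cells), −0.01 (dentate granule cells) and −0.45 (Schwann cells). With genes of oligodendrocyte precursors the r over 14 libraries was −0.07. Over all 16 libraries the r was 0.15 for pan-neuronal genes, 0.45 for interneurons, 0.58 for endothelium and pericytes, 0.43 for microglia, 0.42 for astrocytes, 0.12 for CA1 pyramidal cells and 0.21 for precursors. The value for pan-neuronal genes was thus lower, and those for astrocytes and endothelium higher, with WT replicates 3 and 6 than without them. With the log2 total of estimated counts the r was 0.18 over 14 libraries and −0.26 over 16. With the share of counts in the 10 most abundant genes it was 0.09 and 0.30. How much white matter each piece of tissue held is not given in the sources used here, and its part in this covariation was not tested.

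Other genes of the lineage, in lists of known roles, were counted in the same fit. In edgeR's test 0 genes of any list passed (0.0174% of all genes did). Over all genes, 51.9% of estimates lay below 0, and 50.3% without WT replicates 3 and 6. At an unadjusted p under 0.05, 4.28% of all genes were lower in edgeR's test. Of 23 tested genes of mature oligodendrocytes outside the 30, 14 had estimates below 0 (median −0.14). At an unadjusted p under 0.05, 1 of them was lower, Il33, an alarmin cytokine with a log2 fold change of −1.28 (unadjusted p = 0.0414, adjusted p = 0.628, edgeR). Of 9 genes of myelin lipid synthesis, 7 had estimates below 0 (median −0.06). Of 7 further transcription factors, 4 did (median −0.02), and of 7 genes of newly formed oligodendrocytes, 4 did (median −0.07). Without WT replicates 3 and 6, estimates below 0 numbered 14 of 25 in the mature list (median −0.06), 6 of 9 in lipid synthesis (−0.07), 4 of 7 among the factors (−0.03) and 3 of 8 in the newly formed list (0.10). In the newly formed list, Tns3, a tensin, was at −0.62 with all libraries (unadjusted p = 0.0198, adjusted p = 0.590, edgeR). It stood at 92.2 CPM in WT replicate 3 and at 21.3 to 45.6 CPM in the 6 deeper WT libraries, and its log2 fold change was −0.35 without WT replicate 3 and −0.33 without WT replicates 3 and 6 (unadjusted p = 0.0916, adjusted p = 0.713, edgeR).

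Of 11 precursor genes, 10 had estimates below 0 (51.9% of all genes did), with a median of −0.45. At an unadjusted p under 0.05, 2 were lower, where 4.28% of all genes were: Cspg5, a chondroitin sulphate proteoglycan, and C1ql1, a secreted C1q-like protein. Cspg5 was at 71.5 through 90.7 to 211 CPM in WT and 54.0 through 65.2 to 73.4 CPM in Fmr1-KO, where all 8 animals lay below the WT median and the ranges overlapped narrowly. Its log2 fold change was −0.66 (SE 0.18, unadjusted p = 0.00114, adjusted p = 0.515, edgeR). The highest value was that of WT replicate 3, and the estimate was −0.45 without that library and −0.38 without WT replicates 3 and 6 (SE 0.11, unadjusted p = 0.00222, adjusted p = 0.600, edgeR). Without WT replicates 3 and 6 the median of this list was −0.03, with 6 of 11 below 0. The summed level of the list was 663 and 384 CPM in those libraries and 245 to 325 CPM in the other WT libraries.

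At the level of single transcripts, 31 of the 129 transcripts passed the filter, from 23 genes. None passed edgeR's test (1 of all 16772 transcripts did, 0.00596%), 1 was lower at an unadjusted p under 0.05 (Olig1-001, where 2.06% of all transcripts were) and 0 were higher (1.85%). Estimates lay below 0 for 26 of the 31, with a median of −0.40 beside 0.02 for all. Protein-coding transcripts held 91.3% of the estimated counts of the 30 genes over the 14 deeper libraries, and transcripts with a retained intron held 1.66%. Mbp-010 held 51.3% of the Mbp counts, Mbp-003 18.6% and Mbp-007 15.7%. Mbp-007 ran from 0 to 57.8 CPM in WT and from 0 to 40.6 CPM in Fmr1-KO. Reads shared by several transcripts are divided between them by the model, so a level of a single transcript is less certain than that of the gene. Of the Mobp counts, 75.2% were assigned to Mobp-003, which is annotated as a target of nonsense-mediated decay, and 15.4% to the protein-coding Mobp-002. Mobp-003 was at 42.6 ± 16.7 CPM in WT and 28.5 ± 8.69 in Fmr1-KO (SD, n = 8), and its log2 fold change was −0.57 (SE 0.27; edgeR, adjusted p = 1.0).

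In the GENCODE M21 annotation of GRCm38, 13 of the 30 genes overlap a gene on the other strand, such as Cnp with Dnajc7 and Cryab with Hspb2, and 3 overlap one on the same strand. Whether the counting used strand is not given in the sources used here, so reads from such a pair may not be told apart.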

How the data were processed

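The labels' protocols name a Maxwell kit for extracting the RNA of CA1 and an Illumina HiSeq for sequencing, with 1 library for each of 16 animals. Tools named in the submitters' processing notes are kallisto, cutadapt, FastQC and DESeq2. No version of them is printed here, and the transcript index and genome build were not given in the sources used here. The deposited tables hold estimated counts per transcript, which the authors' quantification divides among transcripts that share sequence, and TPM values, which the authors' quantification scales by effective length within each library.

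Estimated counts were summed by gene symbol and rounded. Genes were tested with edgeR 4.0.16 in R 4.3.3 (TMM normalisation, filterByExpr defaults with a minimum count of 10, quasi-likelihood test, Benjamini-Hochberg adjustment over all 11515 genes, threshold 0.05). CPM values are scaled by TMM, and fold changes are Fmr1-KO over WT. An SE is the log2 fold change divided by the square root of the F statistic. A p-value sets the genotype difference against the spread between these libraries. The main test treats the libraries as independent, although some share an animal number. Alternatives were DESeq2 1.42.0 (Wald test, without its own filter on the mean, which leaves 10492 genes with no adjusted p), limma 3.58.1 (also with shared animal numbers as a random block, added later), other filters and scalings, and libraries left out. The fits were tested on simulated data.

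The 30 genes and the related lists were chosen with earlier results of these libraries known. All 30 genes are named, with Fmr1, the genes of smallest p from the related lists, the genes most like the 30 in pattern, and the tested transcripts. Not all of the genes so selected are reported here. Promoter sequences are from RefSeq (GRCm38.p6), and positions and overlaps from GENCODE M21, joined by gene identifier. Mobp and Cnp stretches were shortened to end before the GENCODE gene start.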

Additional observations from a re-analysis of the deposited data

Results flagged for a closer look

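In 13 of 62 groups (the 8 libraries of a genotype, for each of the 30 genes and the summed level), 1 library lay far from the other 7, with a gap to its nearest neighbour larger than 0.526 of the group's range. Chance flags about 1 in 20 such groups, and genes that vary together are not separate cases. All 13 were high values. WT replicate 3 was high for Olig1 (99.7 CPM, the next library 48.9), Olig2 (40.8, next 17.1) and Gpr37 (79.7, next 32.3). WT replicate 6 was high for Pdgfra (105 CPM, next 54.0) and Ermn (38.3, next 10.8). These are the 2 libraries of low depth.

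WT replicate 8, which had the highest summed level, was high for Trf (55.7 CPM, next 32.2) and Qdpr (62.2, next 42.8). In Fmr1-KO, 6 values stood out: Mag in replicate 3 (27.9 CPM, next 12.5), Ugt8a in replicate 7 (16.8, next 6.4), Qdpr in replicate 5 (55.7, next 37.8), Sox10 in replicate 2 (17.6, next 7.72), Nkx6-2 in replicate 2 (4.73, next 1.99) and Ppp1r14a in replicate 4 (2.56, next 1.12).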

How the results depend on the processing

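Under each alternative 0 of the tested genes of the list passed the threshold, and of 675 values of the 25 genes, 658 kept their direction and their side of it. The count of all genes past the threshold was 2 in the main analysis, 6 with DESeq2, 7 with limma-voom, 5 with no filter, 0 on either TPM scale, and 2 to 3 when 1 library was left out. On the TPM scales, where all genes shifted by 0.55 (pseudocount 1) and 0.62 (pseudocount 0.1) and values are relative to that shift, Mag turned to 0.05 and 0.16, Trf to −0.36 and −0.42, and Fmr1 was at −0.93 and −1.02, no longer past the threshold. Trf was at −0.06 with limma-voom, and at −0.04 in the added limma-voom fit with shared numbers as a random block. Without WT replicates 3 and 6, Olig2 was at 0.24 and Gpr17 at 0.01. When 1 library was left out, Ugt8a ran from −0.93 to 0.06, Trf from −0.04 to 0.24, Enpp2 from −0.01 to 0.10, Olig2 from −0.81 to 0.20 and Gpr17 from −0.39 to 0.04. The median log2 fold change ran from −0.53 to −0.28, the median r over pairs from 0.22 to 0.29, and the log2 ratio of summed levels from −0.41 to −0.28. The median r was 0.49 on either TPM scale, and, in alternatives added after seeing the data, 0.19 in Fmr1-KO alone and 0.38 in WT alone without replicates 3 and 6. The cause of these shifts was not tested. Depth limits the weak genes: 5 of the 30 missed the filter on low counts in the main analysis. No paired analysis was possible because the genotypes share no animal numbers.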

Other observations

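The genes of the axon side of the myelinated fibre, at the node of Ranvier and the paranode beside it, lay the other way. Of 11 tested genes, 9 had estimates above 0 and 2 below 0, where 51.9% of all genes lay below 0. The median log2 fold change was 0.13, and 0.13 without WT replicates 3 and 6, and none passed the threshold. At an unadjusted p under 0.05 in edgeR, 2 were higher, where 3.61% of all genes were. Nrcam, a cell adhesion molecule of the node, ran from 150 through 293 to 356 CPM in WT and from 296 through 373 to 401 CPM in Fmr1-KO, with a log2 fold change of 0.35 (SE 0.13, unadjusted p = 0.0116, adjusted p = 0.581, edgeR), and 0.23 (adjusted p = 0.644) without WT replicates 3 and 6, the lowest value being that of WT replicate 3. Cntnap2, which anchors potassium channels beside the paranode, ran from 148 through 314 to 370 CPM in WT and from 287 through 390 to 456 CPM in Fmr1-KO, with a log2 fold change of 0.40 (SE 0.15, unadjusted p = 0.0119, adjusted p = 0.581, edgeR), and 0.33 (adjusted p = 0.644) without those libraries. Both are made by neurons at large, not only by those with myelinated axons.

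Several genes outside the lists of the lineage had patterns over the 14 deeper libraries close to the mean of the oligodendrocyte genes, among them Spata5 (r = 0.84), Exosc7 (0.82), Rpusd1 (0.81), Magoh, Adra2c, Ube2m, Mrps18c, Rhobtb3, Tmem177, Ptgds, Mdp1, Sfxn5 and Oprl1 (down to 0.73). Over all 16 libraries Mdp1 was at 0.80, Exosc7 at 0.76, Sfxn5 at 0.69, Adra2c at 0.67 and Ptgds at 0.66. In contrast Spata5 and Oprl1 were at −0.05, Rhobtb3 at −0.01, Magoh at 0.12 and Tmem177 at 0.13. Tppp, a tubulin polymerisation-promoting protein on the list of mature oligodendrocyte genes, ranked 11040 of 11490 (r = −0.49).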
